A study of Danio rerio with 8 samples.

Results

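The thioredoxins, peroxiredoxins, glutathione enzymes and superoxide dismutases of adult zebrafish heart cells were followed across 8 RNA sequencing libraries. The genes sought were txnb, prdx1, prdx2, prdx3, prdx5, prdx6, gpx1a, gstp1, sod1 and sod2, 10 names in all. They were selected on their measured transcript abundance (TPM) in these libraries, so the levels by pool number are a description, without a test. Matching by symbol, RefSeq synonym or the symbol stripped of its paralog letter gave 11 of the 31388 gene identifiers in the deposited table. Symbols are those a table of Ensembl gene names lists for the identifiers. txnb matched its own row (ENSDARG00000044125) and the row listed as TXN (ENSDARG00000031435). prdx1 matched a row listed as PRDX1 (ENSDARG00000025350) and a row listed as prdx1 (ENSDARG00000058734). prdx2 has no row under its own symbol; RefSeq lists prdx1 among its synonyms, so the sources used here do not settle which of these rows is prdx2, and both are given with their identifiers. gstp1 is a RefSeq synonym of the row listed as gstp1.2 (ENSDARG00000104068). The other rows are PRDX3 (ENSDARG00000032102), prdx5 (ENSDARG00000055064), prdx6 (ENSDARG00000043511), gpx1a (ENSDARG00000018146), SOD1 (ENSDARG00000043848) and SOD2 (ENSDARG00000042644).

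These enzymes dispose of superoxide and peroxides made by respiration and signalling. Superoxide dismutases turn superoxide into hydrogen peroxide; peroxiredoxins and glutathione peroxidases reduce peroxides; thioredoxin, kept reduced by thioredoxin reductase, recycles most peroxiredoxins, and glutathione serves the peroxidases and transferases. Heart muscle respires heavily, and its mitochondria hold their own set of these enzymes, among them the manganese dismutase SOD2 and the peroxiredoxin PRDX3. The roles named here are known mainly from mammals.

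The study sorted cells from heart ventricles of the reporter line Tg(-6.8wt1a:EGFP), in which sequence upstream of wt1a, a gene for an epicardial transcription factor, drives green fluorescent protein (GFP). The groups are 4 libraries labelled GFP-positive and 4 labelled GFP-negative, from untreated fish 3 to 9 months old that all carried the reporter. Each of 4 pools of 3 to 5 hearts gave a library of both kinds, so libraries of a pool share hearts, and the fluorescence marks cells only as far as this fragment is active in them. The protocol text also speaks of mCherry and of the ventricular apex, whereas the titles speak of GFP. Values are read as TPM, although the deposited table is named as counts, because they are not whole and every library has the same total; TPM is an abundance per transcript length that keeps no sequencing depth, so the depth and the counting error of each value are unknown. Input was low, 0.2 to 0.6 ng of total RNA, and was amplified in 2 rounds.

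The labels were first checked with wt1a. It lay at 1.15 to 71.3 TPM among libraries labelled GFP-positive, against 1.42 to 107 in those labelled GFP-negative, and did not separate them (log2 difference -0.10, SE 0.31; limma adjusted p = 0.974). By pool number it did, with 1.15 to 2.59 TPM in pools 1 and 2, against 39.5 to 107 in pools 3 and 4. The epicardial genes wt1b and tcf21 were checked as well. For wt1b the log2 difference between sorts was 0.09 (SE 0.24, limma adjusted p = 0.969). For tcf21 it was 0.47 (SE 0.29, limma adjusted p = 0.858). In pools 1 and 2 wt1b had 3.44 to 6.78 TPM and tcf21 1.08 to 3.43. In pools 3 and 4 they had 48.3 to 60.0 and 84.3 to 212. Every direction between sorts below is thus that of the library labels. Not every epicardial marker followed wt1a by pool number. podxl had 99.9 to 174 TPM in pools 1 and 2, against 14.7 to 33.3 in pools 3 and 4. The 50 most abundant identifiers took 74.4% to 80.5% of the TPM in pools 1 and 2, against 45.2% to 66.3% in pools 3 and 4. The library labelled GFP-negative of pool 3 had the lowest of these shares.

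TPM as a whole also differed between the pool pairs. Over the 13877 genes that reached 1 TPM in 4 or more libraries, the median log2 difference of pools 1 and 2 minus pools 3 and 4 was -0.80 in the TPM as deposited. It was 0.03 after each library was scaled by a trimmed mean of log ratios. Both scales are given below for pool pairs, and differences on the log2 scale are of value + 1. All 11 rows passed the filter on low values.

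Among the antioxidant rows, on both scales, SOD2 was higher in all 4 libraries of pools 1 and 2 than in any library of pools 3 and 4, and txnb and prdx6 were lower in all 4. TXN was lower there only in the TPM as deposited. PRDX1, PRDX3, gpx1a, gstp1.2 and SOD1 were higher in pools 1 and 2 without overlap only after scaling. On scaled TPM, 6 of the 11 rows thus lay above and 2 below, where 14.5% and 12.1% of all genes tested did. On the TPM as deposited 1 row lay above and 3 below, where 6.26% and 33.4% of all genes did. On both scales at once 1 row lay above and 2 below, where 6.26% and 12.1% of all genes did. Since the rows were proposed with these levels known, nothing is read from these shares. In such bulk libraries, fewer cells of a type and less RNA per cell cannot be told apart.

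**Figure D1:**
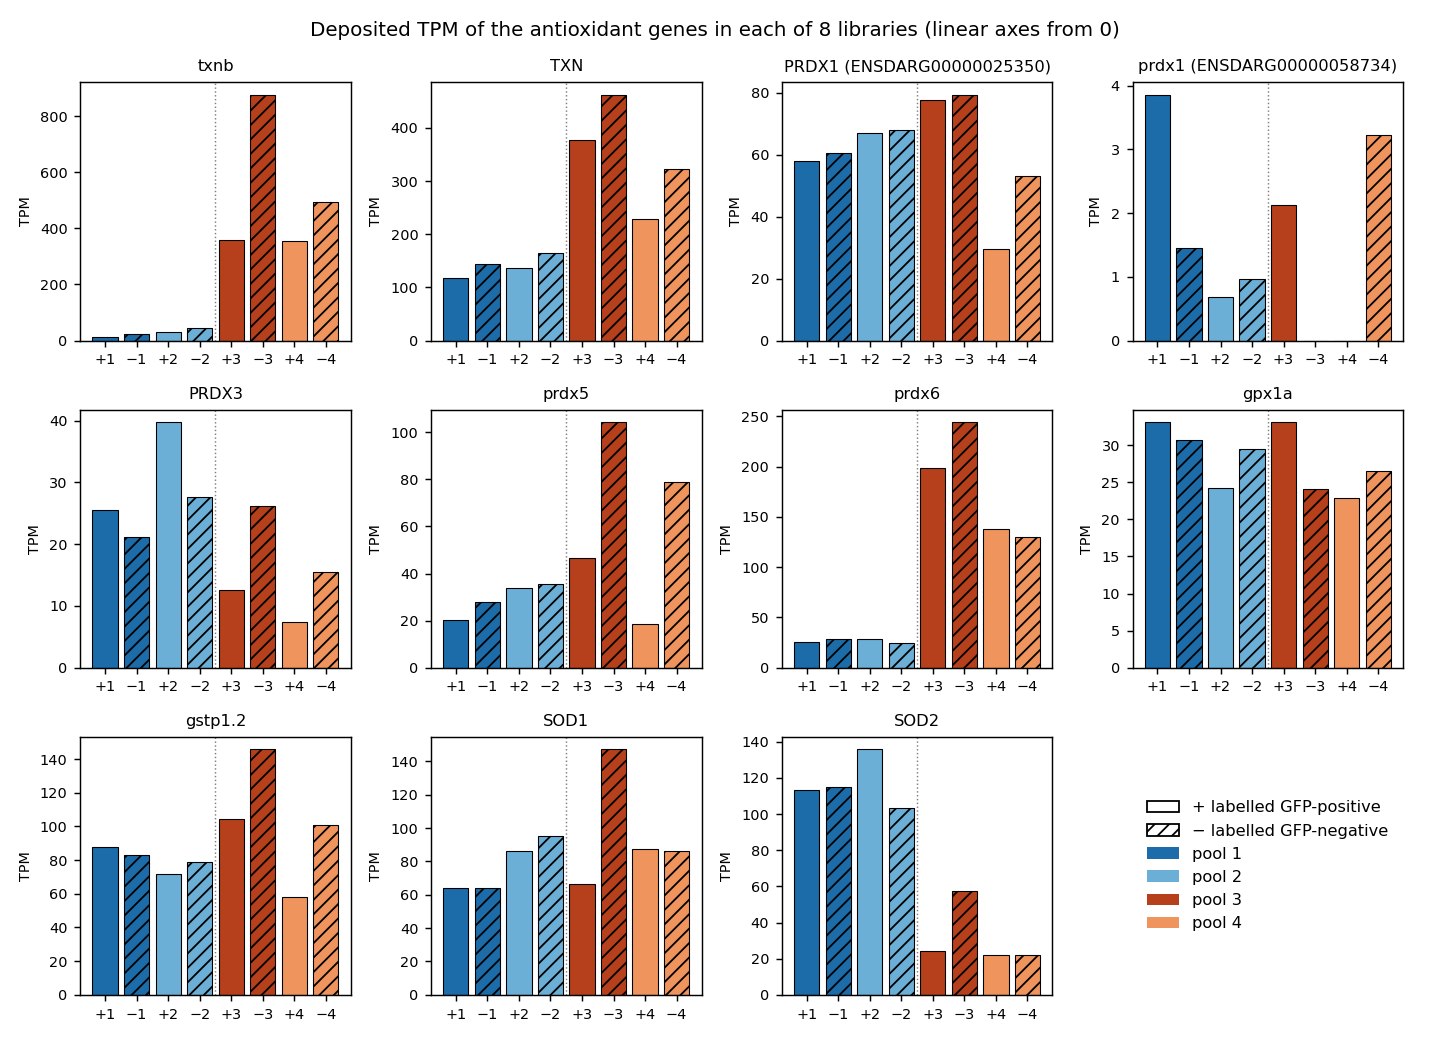
Deposited TPM (vertical axes, linear from 0) of the 11 antioxidant rows, each bar being 1 library, with pools 1 to 4 from left to right, plain bars labelled GFP-positive (+) and hatched bars labelled GFP-negative (−). txnb and prdx6 stand low in the 4 libraries of pools 1 and 2, SOD2 stands high there, and the row prdx1 (ENSDARG00000058734) does not exceed 3.86 TPM in any library.

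Thioredoxin is the small disulfide reductase that passes electrons to peroxiredoxins. For txnb, the libraries labelled GFP-positive of pools 1 to 4 had 12.5, 30.0, 357 and 356 TPM, and those labelled GFP-negative had 24.7, 44.7, 877 and 496 TPM. The lowest library of pools 3 and 4 was thus far above the highest of pools 1 and 2. The mean was 28.0 ± 13.3 TPM in pools 1 and 2, against 522 ± 246 TPM in pools 3 and 4 (SD over 4 libraries each). On the scaled log2 scale the difference was -3.14, with the 4 differences between single pools running from -3.59 to -2.69; in the TPM as deposited it was -4.20. Its rank among genes at 1 TPM or more was 941 to 2201 in pools 1 and 2, against 158 to 246 in pools 3 and 4.

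TXN was abundant everywhere. The libraries labelled GFP-positive had 117, 136, 377 and 229 TPM in pools 1 to 4, and those labelled GFP-negative had 143, 164, 463 and 322. The pool pairs do not overlap in these TPM, but after scaling the values spanned 195 to 217 in pools 1 and 2, against 189 to 266 in pools 3 and 4, and overlapped. The scaled log2 difference was -0.20 (-0.26 to -0.13 between single pools), against -1.27 in the TPM as deposited. Its rank was 310 to 338 in pools 1 and 2, against 235 to 296 in pools 3 and 4.

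Among peroxiredoxins, the peroxidases that thioredoxin recycles, prdx6 went with txnb. PRDX6, unlike its relatives, works with a single catalytic cysteine and glutathione. prdx6 had 25.5, 28.7, 199 and 138 TPM in pools 1 to 4 among libraries labelled GFP-positive, against 28.9, 25.01, 245 and 129.7 TPM in those labelled GFP-negative. Its 4 values in pools 1 and 2 lay within 4 TPM of each other, and all values of pools 3 and 4 were at least 4 times higher. The scaled log2 difference was -1.57 (-1.79 to -1.34 between single pools), and -2.63 in the TPM as deposited.

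The mitochondrial peroxiredoxin PRDX3 went the other way. It had 25.5, 39.8, 12.65 and 7.38 TPM among libraries labelled GFP-positive, against 21.2, 27.6, 26.2 and 15.4 in those labelled GFP-negative. In these TPM the pool pairs overlap through the library labelled GFP-negative of pool 3. After scaling they do not, with 32.2 to 57.8 in pools 1 and 2, against 6.11 to 13.9 in pools 3 and 4, a log2 difference of 1.96 (1.73 to 2.19 between single pools). The difference was 0.94 in the TPM as deposited.

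prdx5, whose protein is found in mitochondria, peroxisomes and cytosol, did not separate the pool pairs. It had 20.4, 33.9, 46.5 and 18.45 TPM among libraries labelled GFP-positive, against 27.9, 35.4, 104 and 78.7 in those labelled GFP-negative. Its highest values were thus on the GFP-negative side of pools 3 and 4. The log2 difference between pool pairs was 0.23 after scaling and -0.83 in the TPM as deposited, so its sign depends on the scaling.

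The row PRDX1 (ENSDARG00000025350), a cytosolic peroxiredoxin by its name, had 58.0, 66.85, 77.6 and 29.5 TPM among libraries labelled GFP-positive, against 60.6, 67.75, 79.3 and 53.2 in those labelled GFP-negative. Its TPM overlap between the pool pairs, while scaled values spanned 82.9 to 96.9 in pools 1 and 2, against 24.5 to 47.9 in pools 3 and 4. The log2 difference was 1.24 after scaling and 0.17 as deposited. The row prdx1 (ENSDARG00000058734) was near the lower limit of the table, with 3.86, 0.68, 2.12 and 0 TPM among libraries labelled GFP-positive, against 1.45, 0.97, 0 and 3.22 in those labelled GFP-negative. Near-identical genes can share reads. How alike these 2 rows are was not examined, so the split between them is left uncertain.

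The glutathione rows gpx1a and gstp1.2 overlapped between the pool pairs in the TPM as deposited. gpx1a encodes a selenoprotein that reduces hydrogen peroxide with glutathione. It had 33.1, 24.2, 33.2 and 22.9 TPM in pools 1 to 4 among libraries labelled GFP-positive, against 30.7, 29.5, 24.1 and 26.6 in those labelled GFP-negative. These 8 values are the narrowest range, as a ratio of highest to lowest, among the 11 rows. After scaling, gpx1a was 35.1 to 55.0 in pools 1 and 2, against 12.8 to 22.0 in pools 3 and 4 (log2 difference 1.18, against 0.14 as deposited).

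gstp1.2, a transferase that joins glutathione to reactive electrophiles, had 87.9, 71.9, 104 and 57.9 TPM among libraries labelled GFP-positive, against 83.2, 78.85, 146 and 101 in those labelled GFP-negative. The highest and the lowest value both belong to pools 3 and 4. The log2 difference between pool pairs was 0.79 after scaling (0.50 to 1.09 between single pools) and -0.27 as deposited, so its sign depends on the scaling.

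The superoxide dismutases differed from each other. SOD2, the manganese enzyme of mitochondria, had 114, 136, 24.5 and 22.1 TPM in pools 1 to 4 among libraries labelled GFP-positive, against 115, 103, 57.5 and 22.2 in those labelled GFP-negative. No library of pools 3 and 4 reached the lowest of pools 1 and 2. The means were 117 ± 13.8 TPM in pools 1 and 2, against 31.6 ± 17.3 TPM in pools 3 and 4 (SD over 4 libraries each). The log2 difference was 3.03 after scaling (2.82 to 3.24 between single pools) and 1.97 as deposited.

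SOD1, the copper and zinc enzyme found mainly in the cytosol, had 64.1, 86.1, 66.6 and 87.2 TPM among libraries labelled GFP-positive, against 64.1, 95.15, 147 and 86.4 in those labelled GFP-negative. In these TPM the pool pairs overlap, and the library labelled GFP-negative of pool 3 was the highest. The log2 difference was 0.79 after scaling, with no overlap, and -0.28 as deposited, so its sign depends on the scaling. Without the library labelled GFP-positive of pool 4, TXN also lay below in pools 1 and 2 after scaling, which makes 3 rows below. Leaving out any other single library left the scaled counts at 6 above and 2 below.

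**Figure D2:**
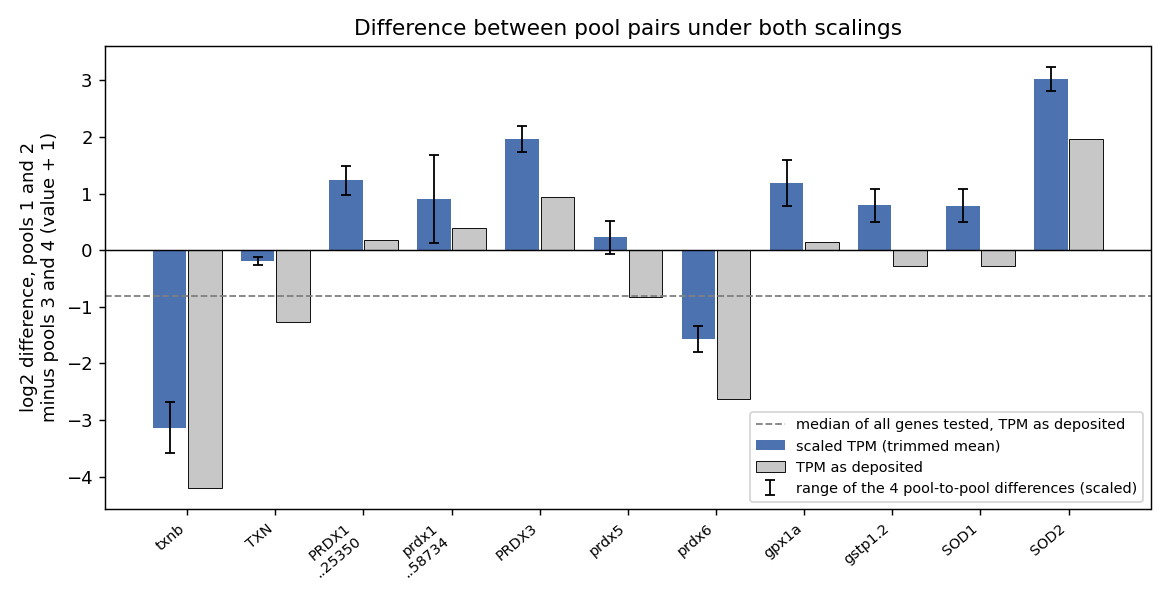
Log2 difference of pools 1 and 2 minus pools 3 and 4 for each row (horizontal axis), after scaling (blue bars, with whiskers over the 4 differences between single pools) and in the TPM as deposited (grey bars). The dashed line is the median of all genes tested in the TPM as deposited, -0.80; txnb, TXN and prdx6 lie below 0 on both scales, both PRDX1 rows, PRDX3, gpx1a and SOD2 lie above 0 on both, and prdx5, gstp1.2 and SOD1 change sign.

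Ratios of a pair of genes within a library do not depend on the scaling. The ratio of txnb to TXN was 0.107 to 0.273 in pools 1 and 2, against 0.947 to 1.90 in pools 3 and 4. txnb exceeded TXN in 3 of the 4 libraries of pools 3 and 4 and in none of pools 1 and 2. The ratio of prdx6 to PRDX1 (ENSDARG00000025350) was 0.369 to 0.477 in pools 1 and 2, against 2.44 to 4.66 in pools 3 and 4. The ratio of SOD2 to SOD1 was 1.08 to 1.796 in pools 1 and 2, against 0.254 to 0.390 in pools 3 and 4. That of prdx5 to PRDX3 was 0.799 to 1.32 and 2.50 to 5.10 in the same order. None of these 4 ratios overlap between the pool pairs. The genes in them were chosen with their levels by pool known, and no share over other gene pairs was taken. Nothing is therefore read from this separation. The ratio of gstp1.2 to gpx1a did overlap, with 2.65 to 2.97 in pools 1 and 2, against 2.53 to 6.06 in pools 3 and 4.

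**Figure D3:**
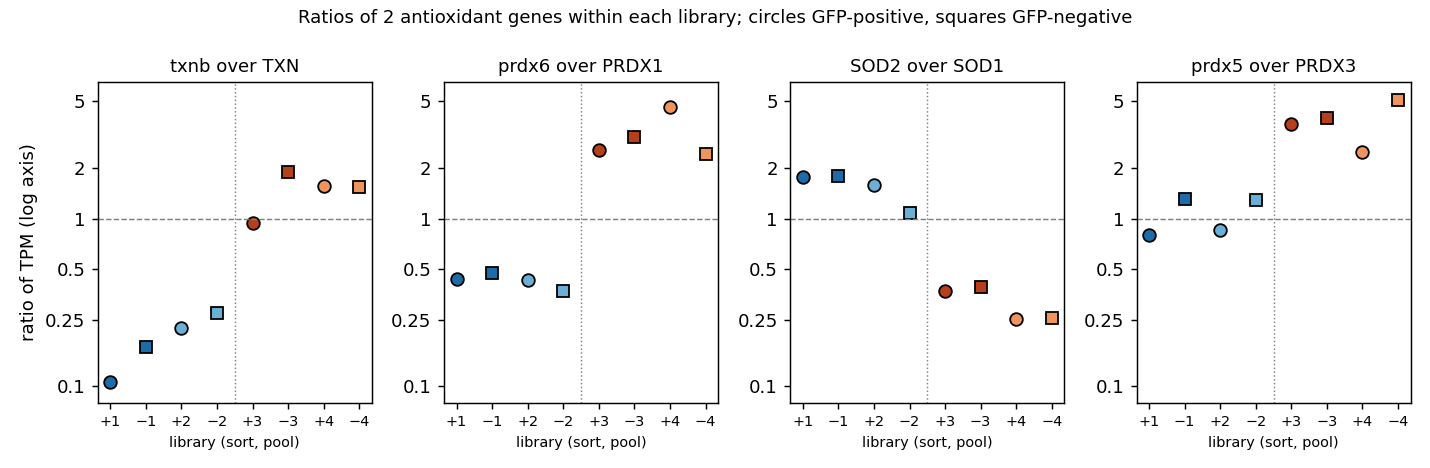
Ratio of the TPM of a pair of antioxidant genes in each library (vertical log axes), with pools 1 to 4 from left to right, circles labelled GFP-positive and squares labelled GFP-negative. The dashed line marks equal TPM and the dotted line parts pools 1 and 2 from pools 3 and 4; each of the 4 ratios shown lies on a separate level in the pool pairs.

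The order of the genes within a library differed accordingly. Sums depend on the scaling and were taken only in the TPM as deposited, where the median log2 difference over all genes was -0.80. On that scale the 11 rows summed to 562 to 672 TPM per library in pools 1 and 2, against 968 to 2169 TPM in pools 3 and 4. txnb and TXN made up 23.1% to 31.0% of that sum in pools 1 and 2, against 56.4% to 61.8% in pools 3 and 4. SOD2 made up 15.4% to 20.8% in pools 1 and 2, against 1.67% to 2.65% in pools 3 and 4. In all 4 libraries of pools 1 and 2 the leading pair was TXN and SOD2, and in all 4 of pools 3 and 4 it was TXN and txnb, followed by prdx6.

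Over the 8 libraries, the scaled log2 levels of txnb and prdx6 had a Pearson correlation of 0.92, and those of SOD2 and PRDX3 of 0.96. txnb and SOD2 had -0.93, txnb and gpx1a -0.96. These are descriptions over 8 libraries that share 4 pools and 1 scaling. prdx5 had at most 0.60 with any other row, that with TXN. Among 4679 genes with a mean of at least 10 TPM, the levels most like txnb were those of FNBP1L (r = 0.99) and SCUBE1 (0.98), and those most like prdx6 were egr1 and zgc:162730 (both above 0.99). For SOD2 they were EIF4EBP2 and the mitochondrial transcript MT-ND4, for PRDX3 CHCHD3 and QKI, and for PRDX1 (ENSDARG00000025350) NDUFB9 and MRPL16. For gpx1a they were ISCU (r = 0.982) and ndufab1b (0.959), for SOD1 NDUFAF1 (0.995) and WIPF2 (0.986), and for gstp1.2 blvrb (0.98) and GAMT (0.947). For TXN they were eif5b (r = 0.944) and ikbip (0.935), and for prdx5 EIF5A2 (0.944) and LSM3 (0.941). For the low row prdx1 (ENSDARG00000058734) they were BBIP1 (0.903) and ZNF706 (0.850). Each is the closest of 4679 genes over 8 libraries, so these r are descriptions as well.

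Between the labelled sorts, the question of the design, no antioxidant row passed the threshold. The test was limma on log2(scaled TPM + 1) over all 13877 genes, with pool as a block. It called 0 genes in either direction (0% of genes), with 770 genes (5.55%) at an unadjusted p under 0.05. Of the 11 rows, 8 had a negative and 3 a positive difference, GFP-positive minus GFP-negative, with a median of -0.14, against 0.01 over all genes tested. In the TPM as deposited the median of the rows was -0.30, against -0.11 over all genes. All adjusted p lay between 0.853 and 0.988.

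txnb had the lowest unadjusted p of the antioxidant rows in limma, while its adjusted p of 0.853 was the same as that of prdx5. Its mean was 189 ± 194 TPM among libraries labelled GFP-positive, against 361 ± 407 in those labelled GFP-negative (SD, n = 4 each), with pools 3 and 4 high in both. Within each of the 4 pools the library labelled GFP-positive was lower. The log2 difference was -0.67 (SE 0.19, 95% confidence interval -1.12 to -0.23; limma unadjusted p = 0.00844, adjusted p = 0.853), and it did not pass. It was the only row with an unadjusted p under 0.05. With any pool left out it ran from -0.79 to -0.54.

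TXN was likewise lower on the GFP-positive side of 4 of 4 pools, with a log2 difference of -0.19 (SE 0.17; limma adjusted p = 0.889). These were 2 of the 11 rows lower in all 4 pools, where 6.51% of all genes were. In the TPM as deposited, 4 rows were lower in all 4 pools, with PRDX1 (ENSDARG00000025350) and prdx5 added, where 10.8% of all genes were. On neither scale was any row higher on the GFP-positive side of every pool, where 7.15% of all genes were on scaled values and 3.98% in the TPM as deposited.

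prdx5 had the largest difference of the 11 rows in size. It averaged 29.8 ± 13.1 TPM among libraries labelled GFP-positive, against 61.6 ± 36.3 in those labelled GFP-negative (SD, n = 4 each). The log2 difference was -0.77 (SE 0.35; limma adjusted p = 0.853), with -0.32, 0.18, -0.93 and -2.02 in pools 1 to 4. Without pool 4 it was -0.36. The other 8 rows had log2 differences from -0.18 for gstp1.2 to 0.16 for gpx1a, each within 1 SE of 0.

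**Figure D4:**
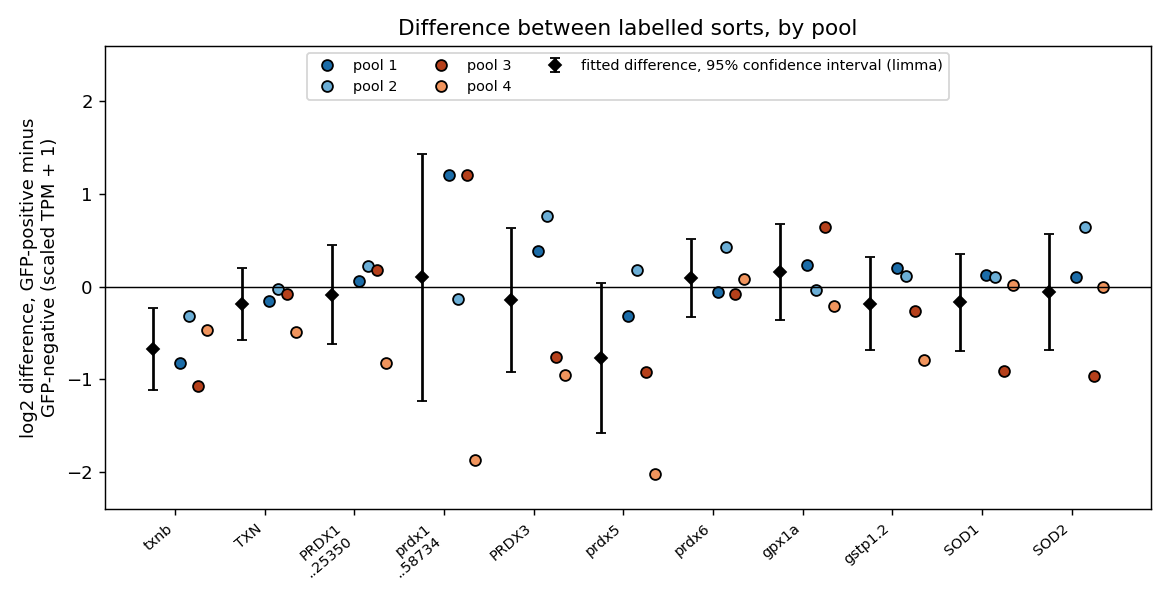
Log2 difference between labelled sorts, GFP-positive minus GFP-negative, on scaled TPM + 1 (vertical axis), for each row. Diamonds with whiskers are the limma estimate with its 95% confidence interval and circles are the 4 pools; txnb lies below 0 in all pools, whereas PRDX3 lies above 0 in pools 1 and 2 and below 0 in pools 3 and 4.

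The difference between labelled sorts was next compared between pools 1 and 2 and pools 3 and 4, as an interaction in limma. PRDX3 was higher in the library labelled GFP-positive in both of pools 1 and 2 (0.57 on average on the log2 scale) and lower in both of pools 3 and 4 (-0.86). These averages differed by 1.43 (SE 0.44; limma unadjusted p = 0.0160, adjusted p = 0.873), which did not pass. For prdx5 the averages were -0.07 in pools 1 and 2 and -1.47 in pools 3 and 4, which differed by 1.40 (SE 0.50; limma unadjusted p = 0.0281, adjusted p = 0.873). For txnb they were -0.57 and -0.77, a difference of 0.20 (SE 0.38; limma adjusted p = 0.976). limma called 0 of 13877 genes (0%) for this interaction, with 787 (5.67%) at an unadjusted p under 0.05; 2 of the 11 rows, PRDX3 and prdx5, were among these.

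The wider pathway was described with lists that include these rows. limma called 0 members of any list between the labelled sorts. The counts by pool pair in these lists, and in the marker lists after them, stand beside 6.26% of all genes above and 12.1% below in pools 1 and 2 on both scales, and 14.5% above and 12.1% below after scaling alone. The list of the thioredoxin system also holds glutaredoxins and thioredoxin-like genes. Of its 17 tested genes, 15 of them not antioxidant rows, 4 were lower in pools 1 and 2 without overlap on both scales and 1 was higher. After scaling alone 4 were lower and 3 higher. Besides txnb, the lower ones include TXNIP (ENSDARG00000036107), whose protein binds and inhibits thioredoxin, with 30.5 to 50.1 TPM in pools 1 and 2, against 107 to 154 in pools 3 and 4. They also include TXNDC5, a disulfide isomerase of the endoplasmic reticulum, with 7.01 to 10.1 TPM in pools 1 and 2, against 29.4 to 67.4 in pools 3 and 4. The higher one was GLRX5, a mitochondrial glutaredoxin of iron-sulfur cluster assembly, with 45.0 to 61.9 TPM in pools 1 and 2, against 3.99 to 16.3 in pools 3 and 4. The log2 median of the list, pools 1 and 2 minus pools 3 and 4, was -0.15 after scaling, against 0.03 over all genes.

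Of 16 glutathione transferase genes tested, 3 were lower in pools 1 and 2 on both scales and 0 higher. After scaling alone 3 were lower and 4 higher, with the antioxidant row gstp1.2 among these 4. The most abundant of the list were 2 rows listed as GSTM3, transferases of the mu class. ENSDARG00000088116 had 42.25 to 63.55 TPM in pools 1 and 2, against 253 to 732 in pools 3 and 4, and ENSDARG00000042533 had 74.7 to 84.8 and 225 to 457 in the same order. Near-identical transferase copies can share reads. How alike these GSTM3 rows are was not examined, so the split between them is left uncertain. gstr, the third by level, had 79.7 to 119 TPM in pools 1 and 2, against 87.6 to 157 in pools 3 and 4, which overlap. After scaling gstr lay above in pools 1 and 2 without overlap (log2 difference 0.98).

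Of 6 peroxiredoxin rows tested, prdx6 alone lay below on both scales and 0 lay above on both, while after scaling alone 2 lay above. Only 1 of the 6, PRDX4, is not an antioxidant row from above, so these counts repeat the choice of rows. PRDX4, the peroxiredoxin of the endoplasmic reticulum, had 2.01 to 8.78 TPM in pools 1 and 2, against 15.4 to 50.2 in pools 3 and 4, but overlapped after scaling. Of 4 genes tested in the list of superoxide dismutases and CCS, SOD2 alone lay above on both scales, and SOD1 with it after scaling alone. These too are antioxidant rows from above. The other 2 tested, SOD3 (ENSDARG00000079183) and CCS, overlapped after scaling. Of 5 glutathione peroxidase and catalase genes tested, 1 lay below on both scales and 0 above. After scaling alone 1 lay below and 3 above, and gpx1a, an antioxidant row from above, is among these 3. GPX4, which reduces lipid peroxides, had 39.9 to 48.8 TPM in pools 1 and 2, against 19.4 to 61.1 in pools 3 and 4. These TPM overlap, but after scaling GPX4 lay above in pools 1 and 2 without overlap (log2 difference 1.41). CAT, encoding catalase, had 11.03 to 13.1 TPM in pools 1 and 2, against 13.3 to 21.8 in pools 3 and 4, lower without overlap as deposited and higher without overlap after scaling.

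Nrf2 is the transcription factor that induces many antioxidant genes, and Keap1 holds it back. Of 16 genes tested in a list of these, their partners and known targets, 2 were lower in pools 1 and 2 on both scales and 0 higher, while after scaling alone 2 were lower and 4 higher. By level the list is led by ferritin genes and a small Maf factor. fthl27 had 144 to 274 TPM in pools 1 and 2, against 276 to 718 in pools 3 and 4. fth1a had 247 to 483 TPM in pools 1 and 2, against 249 to 276 in pools 3 and 4. maff had 59.6 to 128 TPM in pools 1 and 2, against 173 to 308 in pools 3 and 4. After scaling, fthl27 and maff overlapped between the pool pairs and fth1a lay above in pools 1 and 2. The 2 genes below on both scales, NFE2L1 and HMOX1, were named after their values were seen.

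Of 11 genes of glutathione synthesis and recycling, 0 lay apart on both scales in either direction, and of 9 metallothionein and selenoprotein genes 1 did, selenop, which lay below. After scaling alone, 1 gene of each list lay above. selenop encodes a secreted selenium carrier and had 55.1 to 72.1 TPM in pools 1 and 2, against 275 to 518 in pools 3 and 4.

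Markers of other cell types and of mitochondria moved with the pool pairs, with sums given in the TPM as deposited. The summed TPM of 21 cardiomyocyte rows was 25476 to 35610 in pools 1 and 2, against 2016 to 5310 in pools 3 and 4, and all 19 tested lay above in pools 1 and 2 on both scales. That of 20 nuclear genes of mitochondrial respiration was 3387 to 4366.5 and 1361 to 2242 in the same order, with 16 of 20 tested above on both scales. These moved in the direction of SOD2 and PRDX3, the latter without overlap only after scaling. The endothelial, endocardial and erythrocyte genes given below moved in that direction too. That of 17 fibroblast rows was 351 to 675 in pools 1 and 2, against 7331 to 14428 in pools 3 and 4, with 15 of 16 tested below on both scales, the direction of txnb and prdx6. Of 17 endothelial and endocardial genes tested 12 lay above on both scales, with sums of 418 to 698 TPM in pools 1 and 2, against 81.9 to 168 in pools 3 and 4. Of 10 erythrocyte genes tested 7 did, with sums of 754 to 1856 TPM in pools 1 and 2, against 13.6 to 49.2 in pools 3 and 4. Of 15 macrophage and myeloid genes tested 2 lay above and 1 below, and their sums overlapped, 228 to 353 TPM in pools 1 and 2, against 226 to 401 in pools 3 and 4. Of 9 epicardial genes 2 lay above, podxl among them, and 5 below. Their sums were 156 to 317 TPM in pools 1 and 2, against 280 to 586 in pools 3 and 4. A row listed as TNNT2 (ENSDARG00000100694) was at 0 in all libraries of pools 3 and 4. Of the rows listed as MFAP4, a macrophage marker, 1 was at 0 in all libraries of pools 1 and 2 and 1 in all of pools 3 and 4. Antioxidant lists held such rows too, for example 1 glutathione transferase row at 0 in all libraries of pools 3 and 4. No share of such rows over all genes was taken. The part of the cell types above in the antioxidant levels was not tested.

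Between the labelled sorts these sums overlapped for every list, with 2016 to 35610 TPM among libraries labelled GFP-positive, against 4077 to 32931 in those labelled GFP-negative for cardiomyocytes, and 572 to 11126 and 351 to 14428 for fibroblasts. Within the fit, 15 of 16 fibroblast genes had a positive log2 difference, GFP-positive minus GFP-negative (median 0.48), and 17 of 19 cardiomyocyte genes a negative one (median -0.31). The median over all genes tested was 0.01. Of the other marker lists, 7 of 9 epicardial and 11 of 17 endothelial and endocardial genes were positive. Of macrophage and myeloid genes 11 of 15 were negative, and of erythrocyte genes 6 of 10. Genes of a list share the same pools and are not independent. limma called 0 of any of these lists. Their part in the differences of txnb and prdx5 was not tested.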

How the data were processed

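RNA of sorted ventricular cells was sequenced in 8 libraries, 4 per labelled sort. The authors deposited values per gene that were taken as TPM: the table is named as counts, but its values are not whole, every column has the same total, and the notes name RSEM, which gives TPM. Per the submitters' processing notes, CASAVA 1.8.2, cutadapt, RSEM 1.2.25 and the Zv9 build were used. The aligner and the annotation version are not given in the sources used here. TPM keep no depth, so counting error could not be given. The deposited table holds identifiers only. A table of Ensembl gene names gave a symbol to 25925 of 31388, and synonyms came from RefSeq.

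Libraries were scaled by a trimmed mean of log ratios (30% of ratios and 5% of abundances trimmed). The 13877 genes that reached 1 TPM in 4 or more libraries were tested on log2(scaled TPM + 1) with limma 3.58.1 in R 4.3.3, with a trended prior variance, two-sided, Benjamini-Hochberg adjustment over all genes and a threshold of 0.05. The pool number entered as a block, since the design text pairs the sorts by pool. The deviations of same-numbered libraries from their group means correlated at 0.492, 0.537, 0.446 and 0.403 in pools 1 to 4. Libraries of different pools also correlated within pools 1 and 2 (0.474 and 0.552) and within pools 3 and 4 (0.382 and 0.437). The steps were tested on simulated data. Pool pairs were described by the overlap of their 4 libraries each and by log2 differences of pool means. Pools 1 and 2 were set against 3 and 4 by number, which the labels do not name as a batch.

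The antioxidant genes, the pathway and marker lists and the pool pairs were chosen with earlier results of these data known. Named besides the antioxidant rows were up to 3 genes of highest mean TPM per antioxidant list and, per row, the 2 genes with a mean of at least 10 TPM whose levels correlated best with it. Alternatives were the TPM as deposited, median-of-ratios scaling, no trend, other pseudocounts (0.1 and 5), a minimum of 5 TPM or none, no block, and each library or pool left out. Leaving a library out of the list counts was added after seeing the data.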

Additional observations from a re-analysis of the deposited data

Results flagged for a closer look

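Within pools 3 and 4, SOD2 in the library labelled GFP-negative of pool 3 stood apart from the other 3 libraries at 57.5 TPM. The next value was 24.5 TPM and the lowest 22.1 TPM, so that the gap was 0.931 of the range, above Dixon's critical value for 4 samples at the 95% level. Of 44 groups examined 1 was picked out in this way. Chance picks about 1 in 20 where the 4 values are independent and normal. The 44 groups overlap and share pools, so their own rate is not known. After scaling, SOD2 was 30.5 in that library, and 15.1 to 18.4 in the other 3. In the TPM as deposited, the same library had the highest value of txnb, TXN, PRDX1 (ENSDARG00000025350), prdx5, prdx6, gstp1.2 and SOD1 among the 8. After scaling it was the highest of the 8 only for txnb (465) and prdx6 (130). It also had the lowest share of TPM in its 50 most abundant identifiers, 45.2%.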

How the results depend on the processing

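In the TPM as deposited, the log2 difference between sorts turned to -0.050 for prdx6, and that between pool pairs to -0.83 for prdx5, -0.27 for gstp1.2 and -0.28 for SOD1. There 6.26% of genes lay above and 33.4% below in pools 1 and 2, with 1 antioxidant row above. After scaling, 14.5% of genes lay above and 12.1% below. Without a filter on low values these scaled shares were 9.63% and 7.16%, over more genes. With a minimum of 5 TPM in 4 libraries the scaled shares were 19.1% above and 17.85% below, over fewer genes. There 6 antioxidant rows lay above and 2 below.

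Without the pool block, limma called 0 genes between sorts, as with it, with 327 at an unadjusted p under 0.05 and a smallest adjusted p of 0.798.

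With a pool left out, limma called 0 to 2 genes between sorts and 0 to 1 for the interaction. None is an antioxidant row, and they are named after their values were seen: ENSDARG00000083118 and ENSDARG00000105084 without pool 2, SOCS3 without pool 3 and, for the interaction, ENSDARG00000080329 without pool 4. With 1 library left out and no block, ENSDARG00000083118 was called once, when GFP-negative 2 was absent. Where a sign changed with a pool left out, the difference between sorts ran from -0.19 to 0.16 for PRDX1 (ENSDARG00000025350), -0.27 to 0.76 for prdx1 (ENSDARG00000058734), -0.44 to 0.13 for PRDX3, -0.016 to 0.15 for prdx6, -0.0032 to 0.28 for gpx1a, -0.31 to 0.018 for gstp1.2, -0.27 to 0.080 for SOD1 and -0.29 to 0.25 for SOD2. The interaction ran from -0.099 to 0.51 for txnb, -0.015 to 0.40 for TXN, -0.039 to 0.97 for PRDX1 (ENSDARG00000025350), -0.67 to 2.41 for prdx1 (ENSDARG00000058734), -0.058 to 0.43 for prdx6 and -0.54 to 0.30 for gpx1a. With 1 library left out and no block, the sorts no longer hold the same pools, so differences between pools enter the fit. The difference between sorts then changed sign for these rows, none of them called. Without GFP-positive 1 it was 0.0059 for txnb, -0.44 for prdx1 (ENSDARG00000058734) and -0.13 for gpx1a. Without GFP-positive 3 it was 0.25 for PRDX3, -0.17 for prdx6, 0.14 for SOD1 and 0.56 for SOD2. Without GFP-positive 4 it was 0.31 for PRDX1 (ENSDARG00000025350), 0.35 for PRDX3, -0.13 for prdx6, 0.075 for gstp1.2 and 0.48 for SOD2. Without GFP-negative 1 it was 0.10 for PRDX1 (ENSDARG00000025350), 0.055 for PRDX3, -0.097 for prdx6 and 0.45 for SOD2. Without GFP-negative 2 it was 0.054 for PRDX1 (ENSDARG00000025350), 0.077 for PRDX3, -0.27 for prdx6 and 0.30 for SOD2. Without GFP-negative 3 it was -0.29 for prdx1 (ENSDARG00000058734) and -0.17 for gpx1a. The pool pair difference of prdx5 ran from -0.28 to 0.73 with 1 library left out. Without GFP-negative 3, the genes of glutathione synthesis and recycling above in pools 1 and 2 after scaling numbered 2, against 1 with it. The cause of these sign changes was not tested. The row prdx1 (ENSDARG00000058734) had no value under the minimum of 5 TPM. Depth is unknown, so the counting error of values near 0 TPM could not be given.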
